A study of Mus musculus with 2 samples.

Results

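The cytosolic ribosomal protein genes were followed in single mouse leukemia cells. They were chosen by symbol, as every Rpl or Rps gene with a number, with or without the ending a, b, l, x or rt, together with Rpsa, Rplp0, Rplp1 and Rplp2. Pseudogene symbols ending in -ps and the Rps6k kinases were left out. The rule found 81 of the 31053 listed genes, 49 of the large and 32 of the small ribosomal subunit.

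A ribosome is built from ribosomal RNA and a set of ribosomal proteins. The small subunit reads the messenger RNA, and the large subunit joins amino acids into protein. Growing cells make the proteins in matched amounts, and many of their messenger RNAs begin with a cytidine followed by a run of pyrimidines, the terminal oligopyrimidine (TOP) motif, through which mTOR signaling adjusts their translation. In blood-forming tissue, loss of 1 copy of several of these genes impairs red cell production, as in Diamond-Blackfan anemia.

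The cells were AE9a leukemia cells, driven by a truncated AML1-ETO fusion and marked with GFP, which carried a floxed Usp18 gene and UBCER-Cre. Usp18 encodes a protease that removes ISG15 and restrains interferon signaling, and UBCER-Cre is a recombinase expressed in all tissues that tamoxifen activates. Both groups share these alleles and the transplantation into recipient mice. They differ in the injection given once the mice were sick, oil for the group labelled Usp18 f/f and tamoxifen for the group labelled Usp18 delta/delta. The methods of the study give C57BL/6 recipients and mice of 8 to 12 weeks. Spleen cells that were positive for GFP and c-Kit and negative for lineage markers (Lin-) were sorted 3 days after the first injection, and cells of 3 mice were pooled into 1 library per group. The labels conflict on the genotype, since the protocol text speaks of a heterozygous deletion from a single floxed allele.

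After filtering, 6838 cells with 66045700 UMIs remained in the oil-labelled library and 6472 cells with 60661486 UMIs in the tamoxifen-labelled library. A UMI stands for 1 captured transcript. Levels are counts scaled to a common library total of 1000000 (CPM). Usp18 itself had 371 UMIs (5.62 CPM) in the oil-labelled library and 933 UMIs (15.4 CPM) in the tamoxifen-labelled library, so its level goes against the labels. Counts at the 3′ end need not come from the deleted exons and do not check the deletion. Kit stood at 171 and 232 CPM, while Ptprc, which encodes CD45, had 9 and 3 UMIs and Cd34 had 5 and 15 UMIs. Summed T cell, B cell, neutrophil and natural killer markers stayed below 1 CPM in both libraries, and macrophage markers reached 3.29 and 3.64 CPM. The 4 mast cell genes summed to 602 and 467 CPM and the 6 erythroid genes to 6139 and 7753 CPM. Each group is a single library, so no test was possible and every difference given here lies between 2 libraries without a check against replicates. Intervals, at 95%, span counting error alone.

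Of the 81 genes, 78 had at least 100 UMIs in both libraries together, 46 of the large and all 32 of the small subunit. The other 3 are paralogs known from single tissues. Rpl10l, a testis paralog of Rpl10, had 0 UMIs. Rpl3l, the muscle paralog of Rpl3, had 1 UMI in the oil-labelled library, and Rpl39l, a testis paralog of Rpl39, had 1 UMI in the tamoxifen-labelled library. The measured genes were among the most abundant transcripts of these cells. They took 63 of the 100 highest places in the oil-labelled library and 68 of 100 in the tamoxifen-labelled library, and 73 of the genes exceeded 1000 CPM in both. The genes lie on 19 chromosomes, with at most 14 on any 1 of them.

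To show where these transcripts begin, 30 bases around the RefSeq start site (GRCm38.p6) are printed for 9 genes on which the results below turn, from 10 bases before the start to 20 bases from it, in transcript orientation. Capitals mark a run of at least 8 pyrimidines (C or T only) that reaches within 10 bases of the start, on the transcribed strand only. Such a run may begin more than 10 bases before the start.
Rpl14, chr9:120571507-120571536, plus strand: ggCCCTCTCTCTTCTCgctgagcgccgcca
Rps18, chr17:33955646-33955675, minus strand: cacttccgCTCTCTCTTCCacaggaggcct
Rplp2, chr7:141447641-141447670, plus strand: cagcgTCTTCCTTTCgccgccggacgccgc
Rps6, chr4:86857348-86857377, minus strand: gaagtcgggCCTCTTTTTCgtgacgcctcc
Rps27, chr3:90213629-90213658, minus strand: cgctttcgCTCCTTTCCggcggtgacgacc
Rpl39, chrX:37085203-37085232, minus strand: gctccgcctctagcgaCTTCTTCTaatcgc
Rps28, chr17:33824543-33824572, minus strand: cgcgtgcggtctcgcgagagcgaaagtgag
Rpl41, chr10:128549149-128549178, minus strand: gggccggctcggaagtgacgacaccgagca
Rpl5, chr5:107900518-107900547, plus strand: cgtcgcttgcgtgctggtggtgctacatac

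A start was listed for 61 of the 81 genes. A run of this kind was present in 28 of them (45.9%), against 16.3% of all 19407 listed genes. A start exactly at C followed by at least 4 pyrimidines was present in 14 (23.0%), against 2.89% of all genes. A match describes these letters only, and an annotated start can lie a few bases from the start in use. Genes of the mitochondrial ribosome, which are translated in the cytosol but not known as TOP messages, had the strict form in 0% and the run in 13.0%. Genes with and without the run overlapped in their difference between libraries. The 28 measured genes with a run had a median log2 ratio of 0.29 (tamoxifen over oil) and the 30 without a run one of 0.19, and the first set is also shorter, with a median coding length of 405 against 445.5 bases. The 14 genes with the strict form had a median of 0.42 and the 44 without it one of 0.19, with median coding lengths of 379.5 and 448.5 bases.

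Across the family, ribosomal protein transcripts made up 23.8% of all UMIs in the oil-labelled library and 27.5% in the tamoxifen-labelled library, a log2 ratio of 0.21 (95% interval 0.209 to 0.211). Large subunit genes made up 13.4% and 15.5%, and small subunit genes 10.36% and 11.99%, each with a log2 ratio of 0.21. The ratio of large to small subunit UMIs was 1.30 in the oil-labelled library and 1.29 in the tamoxifen-labelled library. Its log2 difference was −0.0022, and it became 0.0098 when 7 ribosomal proteins outside the symbol rule were counted too. The 2 subunits kept this balance in every called cell cycle phase, with ratios of 1.33 and 1.32 in G1, 1.28 and 1.28 in S, and 1.28 and 1.28 in G2M. Across cells the share of UMIs from the large subunit followed that from the small subunit with Pearson's r of 0.971 and 0.972 in 6838 and 6472 cells. Both shares of a cell have the same total beneath them, so this is a description only.

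Within the family the genes differed widely. At least 1.1-fold higher in the tamoxifen-labelled library were 46 of 78 genes, 25 of 46 of the large and 21 of 32 of the small subunit, where 18.7% of all 10527 genes with at least 100 UMIs were called. Among genes of at least 100 CPM in either library, the level nearest to that of the family, 15.4% were called. Rpl5, Rps6 and Rpl13a were at least 1.1-fold lower, 3 of 78, where 35.7% of all genes and 43.8% of the abundant ones were called. A difference of 1.5-fold or more upward was found for 13 genes (2.09% of all genes), 7 of the large and 6 of the small subunit, and 0 were 1.5-fold lower (1.27% of all genes). The median log2 ratio was 0.22 over the 78 genes, 0.17 for the large and 0.25 for the small subunit, and −0.063 over all genes. Scaling with TMM or with DESeq2 size factors shifted every gene upward by 0.065 or 0.063, and 50 of the 78 genes were then at least 1.1-fold higher and 0 lower. The shares of all genes were not recounted under these scalings, so these counts have no share of all genes beside them.

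**Figure D1:**
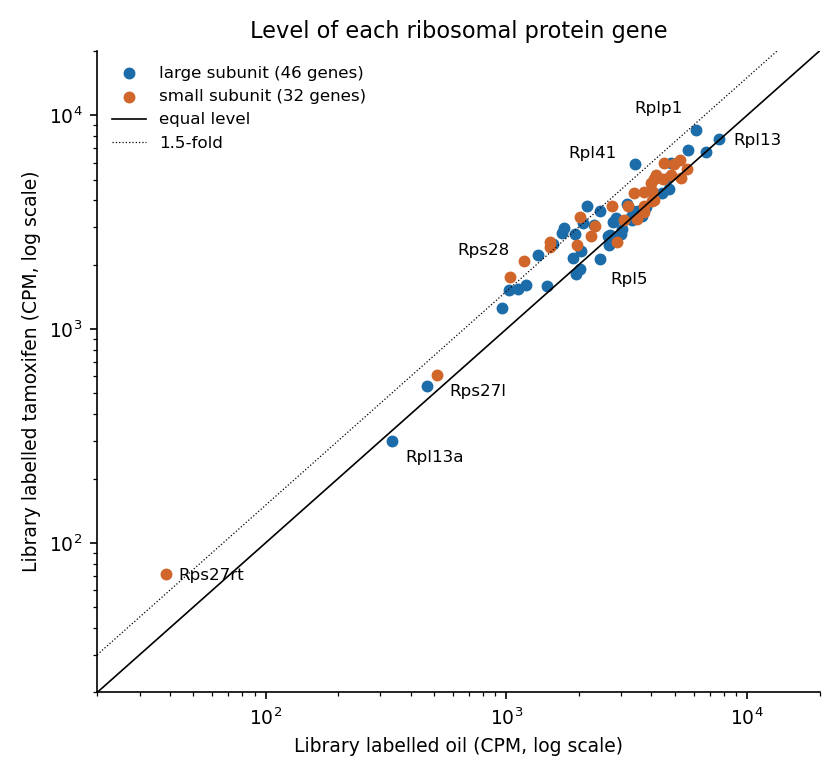
Each point is 1 of the 78 measured ribosomal protein genes, with its level in the oil-labelled library (CPM, horizontal log axis) and in the tamoxifen-labelled library (CPM, vertical log axis), in blue for the large and orange for the small subunit. The solid line marks equal levels and the dotted line a 1.5-fold higher level in the tamoxifen-labelled library. Genes of both subunits lie along the dotted line, among them Rpl41 and Rps28, while Rpl13 lies on the solid line and Rpl5 beneath it.

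Levels are given as CPM and not divided by length, since each captured transcript is counted once near its 3′ end. The highest belonged mostly to the large subunit. Rpl13 stood at 7634 CPM in the oil-labelled library and 7720 CPM in the tamoxifen-labelled library. Rplp0, the base of the stalk that recruits elongation factors, stood at 6740 and 6742 CPM. Both were at nearly the same level in each library. Rplp1, which pairs with Rplp2 on that stalk, differed from its partner Rplp0. It stood at 6150 CPM and 8531 CPM, a log2 ratio of 0.47 (0.466 to 0.478), and was the highest of all in the tamoxifen-labelled library. Rpl32 stood at 5660 and 6879 CPM, and Rps18, of the head of the small subunit, at 5257 and 6167 CPM.

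At the low end of the 78 genes were members with close relatives elsewhere in the genome. Rps27rt, at chr9:114982366-114982739 on the minus strand (GRCm38, GENCODE M21), stood at 38.7 and 71.5 CPM. Its coding sequence is identical to that of Rps27, and 89.8% of its 50-base words occur in Rps27. Of the 50-base words of Rps27, 98.6% occur in Rps27rt, so the counts of both genes are uncertain. Rpl13a, which takes part in an interferon-gamma-induced block of translation, stood at 336 and 300 CPM, and Rpl27 at 468 and 539 CPM. Whether reads of these genes were lost to near-identical copies was not tested. The 9 listed pseudogene symbols summed to 0.0464% and 0.0449% of UMIs, with 2 of the 7 measured at least 1.1-fold higher (18.7% of all genes) and 4 lower (35.7% of all genes).

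The 5 highest ratios belonged to proteins that are among the smallest of the ribosome. Rps27rt led with the counts given above, a log2 ratio of 0.88 (0.81 to 0.96). Rps28, which lies near the messenger RNA exit of the small subunit, stood at 1187 CPM in the oil-labelled library and 2073 CPM in the tamoxifen-labelled library, a log2 ratio of 0.80. Rpl39, which lines the tunnel through which the new protein leaves, stood at 2162 and 3762 CPM, also 0.80. Rpl41, the smallest ribosomal protein, stood at 3413 and 5906 CPM, a log2 ratio of 0.79. Rpl37a, a zinc-binding protein of the large subunit, stood at 1731 and 2955 CPM, a log2 ratio of 0.77. These are differences of about the same size in genes on 5 different chromosomes, with Rpl41 at chr10:128548114-128549305, Rpl39 at chrX:37082520-37085402 and Rps28 at chr17:33819027-33824562, all on the minus strand.

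The 5 lowest ratios belonged to larger proteins. Rpl5, which carries the 5S ribosomal RNA and can bind Mdm2 (chr5:107900502-107909005, plus strand), stood at 2448 CPM in the oil-labelled library and 2130 CPM in the tamoxifen-labelled library, a log2 ratio of −0.20. Rps6, the substrate of the S6 kinases (chr4:86854660-86857412, minus strand), stood at 2890 and 2542 CPM, −0.18. Rpl13a had a log2 ratio of −0.17 on the levels above. Rpl14 stood at 3642 and 3359 CPM, −0.12, and Rpl7 at 2668 and 2484 CPM, −0.10. These differences are small beside those of the short genes. With TMM or DESeq2 scaling none of the 78 genes was 1.1-fold lower, where the share of all genes was not recounted.

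The difference between the libraries was ordered by coding length, a feature that the choice of genes did not use. This relation was examined after the ratios had been seen. Coding lengths ran from 75 to 1257 bases with a median of 453. Among the 11 genes coding for fewer than 300 bases the median log2 ratio was 0.76 and all 11 were at least 1.1-fold higher (18.7% of all genes). These are Rpl41, Rpl39, Rpl38, Rpl37a and Rpl37 of the large subunit, with a median of 0.77, and Rps29, Rps28, Rps21, Rps27, Rps27rt and Rps27l of the small subunit, with a median of 0.75. From 300 to 450 bases the median was 0.37 and all 27 genes were called higher (18.7% of all genes). From 450 to 600 bases the median was 0.11 and 7 of 19 were called higher. From 600 to 900 bases it was −0.072, with 1 of 18 called higher and 3 lower (35.7% of all genes). The 3 genes of 900 bases or more had a median of −0.049 and no call.

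**Figure D2:**
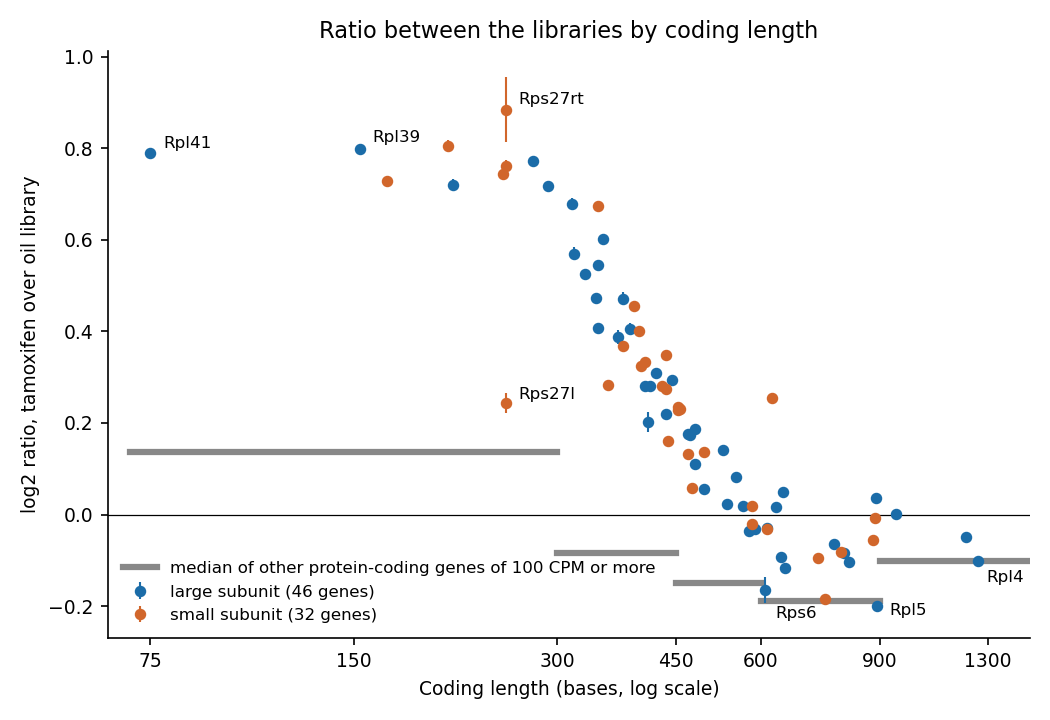
For each measured gene the log2 ratio of its level (tamoxifen over oil, vertical axis) is plotted against its coding length in bases (horizontal log axis), with blue points for the large subunit, orange points for the small subunit, vertical bars for the 95% counting intervals and grey bars for the median of other protein-coding genes of at least 100 CPM in the same length range. The ratios descend from near 0.8 in the shortest genes to mostly near or below 0 above 600 bases, with Rps27l below the other genes of its length.

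Over the 78 genes, Spearman's rho of the log2 ratio with coding length was −0.94 and Pearson's r with log2 coding length was −0.88. It was −0.95 among the 46 genes of the large and −0.91 among the 32 of the small subunit. With the length of the whole annotated transcript it was −0.52. All points share the same 2 libraries, and genes are not replicates. Rps27l departed from the order. This p53-regulated paralog of Rps27 with 252 coding bases stood at 516 and 610 CPM, 0.24, the lowest of the 11 short genes. Stalk proteins followed the order, with Rplp1 (342 bases) at 0.47, Rplp2 (345 bases) at 0.55 and Rplp0 (951 bases) at 0.00055.

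Other protein-coding genes were set beside the family in the same length ranges. Among 219 other genes coding for fewer than 300 bases the median log2 ratio was 0.036, with 91 at least 1.1-fold higher and 58 lower. For those of at least 100 CPM, nearer the family in level, it was 0.14, with 50 of 101 higher and 22 lower. Medians of the longer ranges were −0.061, −0.12, −0.12 and −0.056 over 534, 641, 1401 and 7050 other genes. For those of at least 100 CPM they were −0.084, −0.15, −0.19 and −0.10. In the longer ranges, 114, 70, 173 and 1212 of all other genes were at least 1.1-fold higher and 199, 295, 666 and 2398 lower. By annotated transcript length the short genes outside the family stood higher still. The 34 others with transcripts under 450 bases had a median of 0.40, with 25 higher and 4 lower, and all 8 of those of at least 100 CPM were higher, with a median of 0.48. From 450 to 600 bases of transcript, the 36 others of at least 100 CPM had a median of 0.25, with 25 higher and 1 lower. The 6 and 13 family members in these 2 transcript ranges had medians of 0.75 and 0.40. Genes outside the family with transcripts under 600 bases were thus mostly higher in the tamoxifen-labelled library. By coding length, medians of other genes were above 0 only under 300 bases. Over 9854 other protein-coding genes, Spearman's rho of the log2 ratio with transcript length was 0.20. It was −0.16 over the 1580 with transcripts below 1500 bases. The 3 mitochondrial ribosomal protein genes under 300 bases had a median of 0.28, while the 20 of 300 to 450 bases had one of −0.27. What orders the ratios by length was not tested, and with 1 library per group the injection, the animals and the handling of each library cannot be told apart.

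In sums, the 11 short genes took 1.67% of UMIs in the oil-labelled library and 2.80% in the tamoxifen-labelled library, a log2 ratio of 0.75, and the 67 longer genes took 22.1% and 24.7%, a log2 ratio of 0.16. The short genes had log2 ratios of 0.82 in G1, 0.69 in S and 0.72 in G2M cells, the longer genes 0.25, 0.12 and 0.14. Both parts of the family were thus higher in every phase, the short part by more. The rank relation with coding length was −0.94 in each of the 3 phases.

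The share of a cell's ribosomal protein UMIs that came from the 11 short genes set the cells of the libraries apart. Over cells with at least 100 ribosomal protein UMIs, the median was 7.09% in 6829 cells of the oil-labelled library (5th to 95th percentile 5.90 to 8.98) and 10.3% in 6463 cells of the tamoxifen-labelled library (8.92 to 12.6). At the midpoint of the medians, 8.71%, only 6.96% of the first lay above and 2.88% of the second below. By phase the medians were 7.34% and 10.6% in G1, 6.89% and 9.95% in S, and 6.90% and 10.00% in G2M. By depth they ran from 7.72% and 11.1% in cells of 2000 to 4000 UMIs to 6.80% and 9.81% above 16000 UMIs. Over bins of mitochondrial share they lay between 6.92% and 7.43% in the oil-labelled library and between 10.2% and 10.6% in the tamoxifen-labelled library. The difference was present in each of these bins and, unlike the family's total share, varied little between them.

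**Figure D3:**
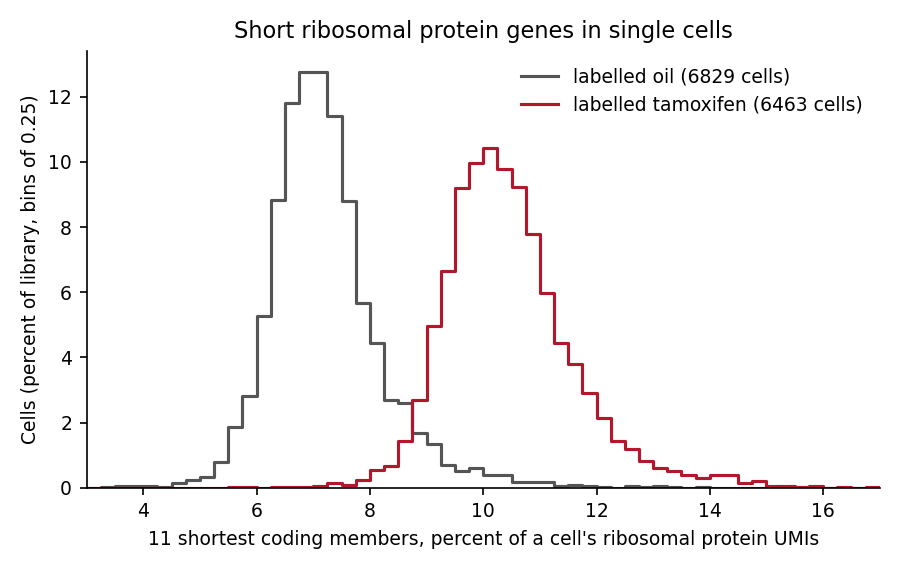
Histograms of the percent of each cell's ribosomal protein UMIs that came from the 11 genes coding for fewer than 300 bases (horizontal axis), as a percent of each library's cells (vertical axis), in grey for the 6829 cells labelled oil and in red for the 6463 cells labelled tamoxifen. The 2 peaks overlap little, with medians of 7.09% and 10.3%.

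Cells were called by phase from S and G2M genes after thinning to 3000 UMIs, and cells called G1 include resting cells. Of 6330 cells in the oil-labelled library 46.1% were called G1, 19.7% S and 34.2% G2M, and of 6127 cells in the tamoxifen-labelled library 60.4%, 13.2% and 26.3%. All 12 proliferation genes used as a check were at least 1.1-fold lower in the tamoxifen-labelled library (35.7% of all genes), with a median log2 ratio of −0.44. A list of 8 genes of resting cells was split, with 5 at least 1.1-fold higher (18.7% of all genes) and 3 lower (35.7% of all genes). Phase calls also read free RNA, whose part was not tested. Ribosomal protein transcripts took 22.4% of UMIs in G1 cells of the oil-labelled library and 27.5% in those of the tamoxifen-labelled library, a log2 ratio of 0.30. In S cells they took 25.6% and 28.7%, 0.16, and in G2M cells 24.0% and 27.3%, 0.18. The share was thus higher in the tamoxifen-labelled library in each phase, most in G1. With both libraries weighted to the same phases it was 23.9% and 27.7%, a log2 ratio of 0.21 as before.

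Cycling cells held a slightly larger share than G1 cells in the oil-labelled library, with log2 ratios of 0.19 for S and 0.10 for G2M over G1. In the tamoxifen-labelled library the ratios were 0.062 and −0.0096. Depth differed with phase as well. G1 cells had medians of 6123 and 6506 UMIs, S cells 12694 and 13550, and G2M cells 13054 and 12727. At 8000 to 16000 UMIs the median share was 25.8% in G1, 25.98% in S and 24.6% in G2M cells of the oil-labelled library, and 29.9%, 29.0% and 27.8% in the tamoxifen-labelled library. At 4000 to 8000 UMIs it was 20.9%, 23.9% and 22.5% in the oil-labelled library and 27.3%, 29.1% and 26.8% in the tamoxifen-labelled library. G1 cells of the oil-labelled library thus lay below its G2M cells in the shallower range and above them in the deeper one, while G1 cells of the tamoxifen-labelled library lay above its G2M cells in both. In cells of 5000 to 15000 UMIs the ratios of S over G1 were 0.11 and 0.021 and those of G2M over G1 −0.021 and −0.079.

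**Figure D4:**
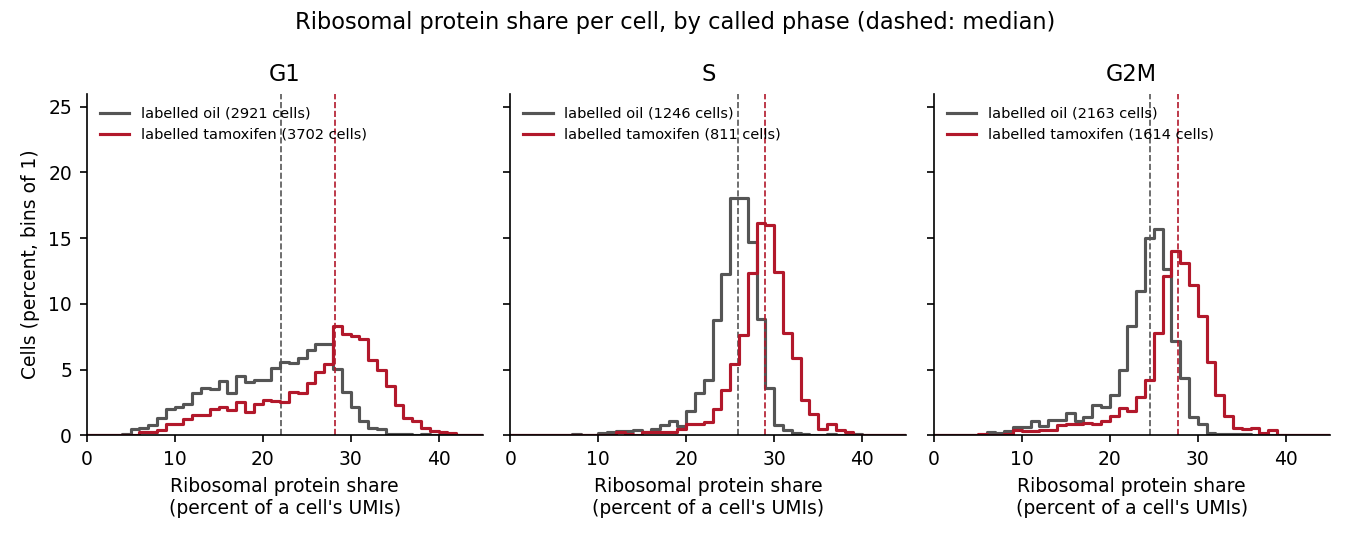
Histograms of the ribosomal protein share of each cell's UMIs (percent, horizontal axis) as a percent of cells (vertical axis) for cells called G1, S and G2M in the libraries labelled oil and tamoxifen, with dashed lines at the medians. In G1 cells the shares spread widely, with medians of 22.1% and 28.2%, while S and G2M cells form narrow peaks with medians between 24.6% and 28.9%.

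The spread of the share among G1 cells was wide. The middle 50% of G1 cells ran from 16.3% to 26.3% in the oil-labelled library and from 21.9% to 31.4% in the tamoxifen-labelled library. Within G1 cells of 4000 to 8000 UMIs, 21.5% and 10.2% of cells had a share under 15%, and 4.83% and 32.2% had one of 30% or more. Cells with a low share held more erythroid transcripts, and also more transcripts of the mast cell genes and of the list of resting cells. Scaled to 1000000 UMIs outside the family, the erythroid genes stood at 27741 in cells under 15% and 7351 in cells of 30% or more in the oil-labelled library, and at 39827 and 4107 in the tamoxifen-labelled library. In the oil-labelled library the erythroid level was lowest, 5577, in cells of 25% to 30%. The mast cell genes stood at 3667 and 1698, and at 2754 and 1307, without an even order between. The resting list stood at 4296 and 3126, and at 4134 and 3027. Elongation and other TOP genes ran the other way, from 18912 to 38600 and from 17066 to 35791. Across these shares the short genes kept their part of the family's UMIs, with 7.73% under 15% and 7.17% at 30% or more in the oil-labelled library, and 11.1% and 10.5% in the tamoxifen-labelled library. The bounds of these share ranges were set after the data had been seen.

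Single genes differed in how they moved with phase, in a like order in both libraries. At least 1.1-fold higher in S than in G1 were 53 of 78 genes in the oil-labelled library (34.3% of all genes), 21 in the tamoxifen-labelled library (35.2%) and 21 in both (31.2%). Lower were 2, 8 and 2 genes (50.1%, 48.4% and 44.9% of all genes). For G2M over G1, 30, 12 and 12 genes were higher (34.3%, 34.1% and 30.8%) and 5, 12 and 5 lower (49.1%, 48% and 44.4%). The share of the family called higher in both libraries thus lay below the share of all genes. Across the 78 genes the log2 ratios of the 2 libraries had Pearson's r of 0.987 for S and 0.988 for G2M over G1, where phases in each library rest on the same phase genes.

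Rps27l had the highest ratios, 0.88 and 0.72 for S over G1 and 0.81 and 0.64 for G2M over G1. Rpl13a followed in S with 0.60 and 0.46. Rps2, which lies at the messenger RNA entry of the small subunit, had 0.56 and 0.48 in S and 0.44 and 0.36 in G2M. The lowest ratios were those of genes coding for fewer than 450 bases. Rps27, the zinc-finger parent of Rps27l, had −0.16 and −0.30 in S and −0.23 and −0.32 in G2M. Rpl39 had −0.076 and −0.20 in S and −0.17 and −0.23 in G2M, Rps27rt −0.14 and −0.25 in S, and Rplp1 −0.20 and −0.27 in G2M. Phase ratios had only a weak rank relation with coding length, 0.21 and 0.23 for S over G1.

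The direction of the difference between libraries was shared by all 3 phases for most genes of the family. The 3 phases come from the same 2 libraries. The counts below were not made over all genes and are a description only. The log2 ratio was above 0 in G1, S and G2M for 53 of 78 genes, below 0 in all 3 for 7, and of opposite sign in different phases for 18. With counting intervals clear of 0, these counts were 52, 5 and 13. Rpsa, which is also known as a laminin receptor, was such a gene, with 0.10 in G1, −0.059 in S and −0.016 in G2M, and Rpl13 had 0.10, −0.038 and −0.018.

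Paralog pairs were compared as the paralog's percent of the pair's UMIs. Rps27l made up 33.3% of the UMIs of Rps27 and Rps27l in the oil-labelled library (33.1 to 33.6) and 25.9% in the tamoxifen-labelled library (25.7 to 26.1). In the oil-labelled library its percent was 22.8% in G1, 37.9% in S and 37.8% in G2M, and in the tamoxifen-labelled library it was 19.2%, 32.4% and 31.7%. The pair was thus more strongly tilted to Rps27l in cycling cells of both libraries, with log2 changes of paralog over parent of 1.04 and 1.02 for S over G1. The coding sequences are 76.2% identical and share none of their 50-base words. Rps27 shares 98.6% of its 50-base words with Rps27rt, however, so its counts and these percents are uncertain.

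Rpl22, an RNA-binding protein of the large subunit needed in lymphocyte development, stood at 1211 and 1603 CPM, and its paralog Rpl22l1 at 937 and 1044 CPM. Rpl22l1 made up 43.6% of the pair in the oil-labelled library and 39.4% in the tamoxifen-labelled library. Across phases it varied little, from 42.1% in G1 to 44.4% in S in the oil-labelled library and from 37.8% to 41.4% in the tamoxifen-labelled library. Rpl36al made up 13.4% and 11.4% of its pair with Rpl36a, and was lower in G1 (11.03% and 9.75%) than in G2M (14.3% and 12.4%). Rpl7l1 made up 4.27% and 3.88% of its pair with Rpl7. In these 4 pairs the paralog's percent was lower in the tamoxifen-labelled library and lower in G1 than in S or G2M cells. Rps27l and Rpl7l1 code for 252 and 738 bases.

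**Figure D5:**
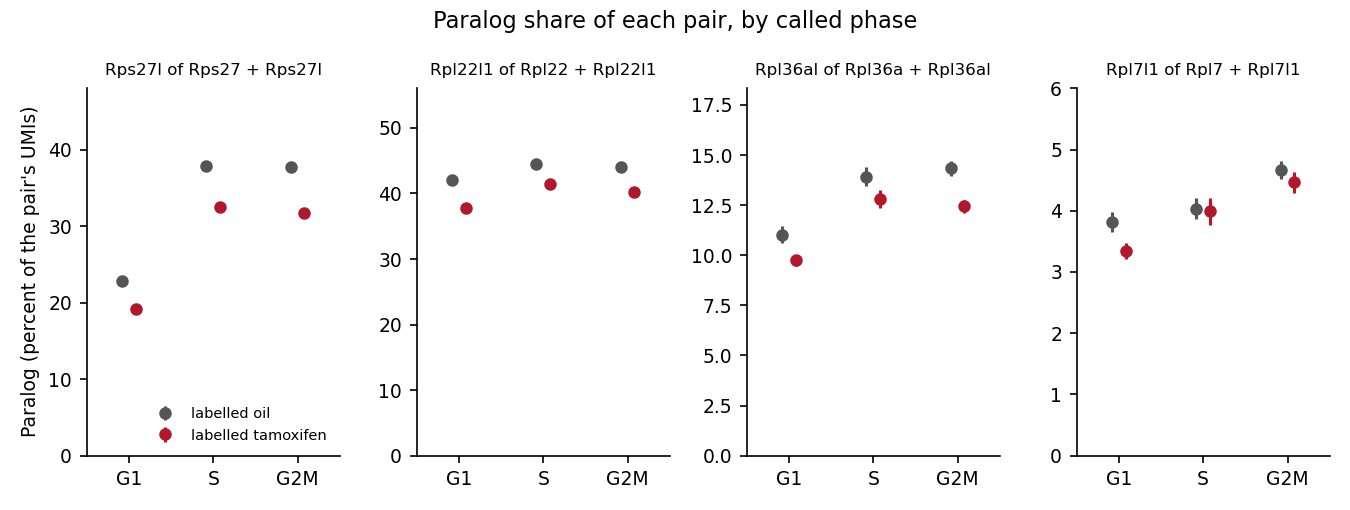
The paralog's percent of the UMIs of a pair (vertical axis) in cells called G1, S and G2M (horizontal axis) for the libraries labelled oil and tamoxifen, with bars for the 95% counting intervals and a panel each for Rps27l, Rpl22l1, Rpl36al and Rpl7l1. Rps27l is at 22.8% in G1 and 37.9% in S cells of the oil-labelled library, while Rpl22l1 stays between 37.8% and 44.4% in both libraries.

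Rps27rt made up 3.62% and 3.93% of its pair with Rps27, as far as reads of these sequences can be assigned. Rpl39l had 0 UMIs beside 142758 of Rpl39 in the oil-labelled library, which allows a share of up to 0.00210%, and 1 UMI in the tamoxifen-labelled library (0.000438%). The muscle and testis paralogs Rpl3l and Rpl10l were not detectable beyond 1 UMI next to Rpl3 at 3027 and 2925 CPM and Rpl10 at 2981 and 2796 CPM. Rps4x stood at 3735 and 3531 CPM; its paralog Rps4l was not analysed here.

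The 7 ribosomal proteins outside the symbol rule lay on both sides of 0. Fau, a fusion of a ubiquitin-like protein with Rps30 that codes for 399 bases, stood at 3028 and 4044 CPM, a log2 ratio of 0.42, close to family members of its length. Rps3a1 stood at 4277 and 4028 CPM (−0.087) and Rack1, a signaling scaffold on the small subunit, at 3800 and 3587 CPM (−0.083). The paralogs Rpl22l1, Rpl36al and Rpl7l1 had log2 ratios of 0.16, 0.30 and −0.25.

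The lists of the wider translation machinery had medians below 0. Mitochondrial ribosomal proteins took 0.769% and 0.687% of UMIs, and 3 of 77 were at least 1.1-fold higher in the tamoxifen-labelled library (18.7% of all genes) and 59 lower (35.7% of all genes), with a median log2 ratio of −0.23. Elongation factors and other TOP genes took 2.40% and 2.24%, with a median of −0.10. Of these 21 genes, 0 were higher (18.7% of all genes) and 8 lower, a share of 38.1% that is near that of all genes. Ribosome biogenesis genes took 0.431% and 0.346%, with 1 of 31 higher (18.7% of all genes) and 26 lower (35.7% of all genes) and a median of −0.34. Ncl, the nucleolar protein nucleolin, stood at 1376 and 1087 CPM (−0.34), and Fbl, the methyltransferase fibrillarin, at 296 and 234 CPM (−0.34). All 31 biogenesis genes were at least 1.1-fold higher in S than in G1 cells in both libraries (31.2% of all genes), with medians of 1.19 and 1.29. Mitochondrial ribosomal proteins had medians of 0.59 and 0.61. The medians of the cytosolic family were 0.20 and 0.071, beside −0.14 and −0.11 over all genes.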

How the data were processed

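Libraries were made with the Chromium V3 3′ kit. The deposited matrices hold UMI counts of each gene in each cell, made by the authors with Cell Ranger (version 3.0.2 in the matrix headers) on mm10. They have no normalization, and multi-mapped reads are not counted by this tool's usual setting.

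Kept were cells of 500 genes or more whose mitochondrial UMIs made up no more than 10%, 6838 of 7774 and 6472 of 7311 barcodes, with median depths of 8622.5 and 8209.5 UMIs. Scrublet marked 0% of barcodes, so doublets were not removed. The libraries share 14 barcodes. UMIs were summed per library and divided by the total (CPM). Ratios have exact conditional binomial intervals, and levels and shares of all UMIs have exact Poisson intervals. Percents of a pair's UMIs and of cells have exact Clopper-Pearson intervals. A count of 0 was given a floor of 3 counts. Ratios were called at 1.1-fold and 1.5-fold, since no test is possible with 1 library a group. The interval step was tested on simulated counts. For phases, 42 S and 52 G2M genes were scored with scanpy on cells thinned to 3000 UMIs, leaving out 508 and 345 shallower cells.

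Named genes are those with the 5 highest and 5 lowest ratios and levels, the 3 highest and lowest phase ratios, the paralog pairs and the ribosomal proteins outside the symbol rule. Results of 2 genes that this rule selects are not reported here. Others, such as Rplp2, Rpsa, Ncl and Fbl, were chosen after their values were seen. The family and the gene lists were chosen with earlier results of these data known. Positions and coding lengths come from GENCODE M21 (GRCm38), matched for 31011 of 31053 genes, and start sites from RefSeq (GRCm38.p6). Where a gene has several transcripts, 1 annotated transcript stood for it.

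Alternatives were other cell filters, equal weight per cell, other scalings, count minimums and thinning depths, and, chosen after seeing the data, genes of at least 300 coding bases, cells of 5000 to 15000 UMIs and cells with a family share of at least 15%. Versions used were R 4.3.3 with DESeq2 1.42.0 and edgeR 4.0.16, and Python 3.11.15 with scanpy 1.11.5, Biopython 1.88, pandas 2.3.3, scipy 1.17.1, matplotlib 3.10.9 and numpy 2.4.6.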

Additional observations from a re-analysis of the deposited data

Results flagged for a closer look

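The family's share in G2M over G1 cells had opposite signs in the libraries, with a log2 ratio of 0.10 in the oil-labelled library and −0.0096 in the tamoxifen-labelled library. With 1 library each the difference was not tested, and the second value is near 0.

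Barcodes left out by the cell filter also held these transcripts. The family made up 20.01% of the UMIs of 936 such barcodes in the oil-labelled library and 25.3% of those of 839 in the tamoxifen-labelled library, a log2 ratio of 0.34. The 11 genes of fewer than 300 coding bases had a log2 ratio of 0.84 in them and the 67 longer ones 0.29.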

How the results depend on the processing

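No paired analysis was possible because a group is 1 library and no test was made. All values are log2 ratios, reported value first. The share of the family, tamoxifen over oil (0.21), was 0.22 with all barcodes, 0.19 with cells of 1000 genes or more and up to 5% mitochondrial UMIs (the strict filter), 0.21 with up to 20% (the loose filter), 0.21 leaving out 6% of cells by Scrublet score, 0.24 with equal weight per cell, 0.20 with the 7 further ribosomal proteins, 0.27 with TMM, 0.27 with DESeq2 size factors, 0.29 on a total that leaves out mitochondrial and ribosomal protein genes, and, chosen after seeing the data, 0.16 for genes of at least 300 coding bases, 0.23 in cells of 5000 to 15000 UMIs and 0.19 in cells of at least 15% share. Within G1 (0.30), the same settings and the thinning settings gave 0.30, 0.28 (strict), 0.31 (loose), 0.32 (equal weight), 0.30 (thinned to 2000), 0.27 (thinned to 5000), 0.31 (no thinning), 0.27 (5000 to 15000 UMIs), 0.29 (7 further genes), 0.29 (total without mitochondrial genes), 0.25 (cells without Mki67 and Top2a) and 0.25 (at least 300 coding bases). Large over small subunit (−0.0022) turned to 0.0098 with the 7 further genes and was −0.020 for genes of at least 300 coding bases.

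Phase ratios were less stable. In the order all barcodes, strict, loose, without high Scrublet scores, equal weight, thinned to 2000, thinned to 5000, no thinning, 5000 to 15000 UMIs, at least 15% share, total without mitochondrial genes, and cells with against cells without a UMI of Mki67 or Top2a, S over G1 in the oil-labelled library (0.19) was 0.20, 0.41, 0.21, 0.20, 0.26, 0.21, 0.12, 0.23, 0.11, 0.090, 0.19 and 0.053. In the tamoxifen-labelled library (0.062) it was 0.073, 0.31, 0.077, 0.068, 0.12, 0.072, 0.016, 0.089, 0.021, 0.014, 0.055 and −0.018. G2M over G1 in the oil-labelled library (0.10) was 0.11, 0.26, 0.12, 0.11, 0.16, 0.12, 0.020, 0.13, −0.021, 0.020, 0.093 and 0.053, and in the tamoxifen-labelled library (−0.0096) −0.0047, 0.20, 0.00062, −0.0017, 0.037, 0.0010, −0.065, 0.0012, −0.079, −0.045, −0.016 and −0.018. The cause of these changes was not tested.

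The number of genes at least 1.1-fold higher lay between 35 (of 67 genes of at least 300 coding bases) and 51 in all settings. Shares of all genes were not recounted in the other settings. Rps2 and Rpl3, reported at −0.056 and −0.049, turned to 0.0089 and 0.016 with TMM, 0.0066 and 0.014 with DESeq2 size factors and 0.024 and 0.031 on a total that leaves out mitochondrial and ribosomal protein genes. The counts themselves are deep, so counting error limits few values, while the spread between animals is unknown.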

Other observations

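Among the wider translation lists, whose medians lay below 0, only 4 genes were called higher. They were 3 of 77 mitochondrial ribosomal protein genes and 1 of 31 biogenesis genes, where 18.7% of all genes were called. Mrpl52, Mrpl33 and Mrps21, of the mitochondrial ribosome, and Nop10, a component of the particles that modify ribosomal RNA, were the members of those lists at least 1.1-fold higher in the library labelled tamoxifen, and they were chosen for this after their values were seen. Nop10 stood at 197 CPM in the oil-labelled library and 227 CPM in the tamoxifen-labelled library, a log2 ratio of 0.20. By coding length, 2 of the 3 mitochondrial ribosomal protein genes under 300 bases were higher and 0 lower. From 300 to 450 bases 1 of 20 was higher and 13 lower, and at longer lengths 0 were higher.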
